A study of Mus musculus with 6 samples.

Results

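TRAF proteins, cellular inhibitors of apoptosis (cIAPs) and NF-kB-inducing kinase (NIK) form a module through which receptors of the TNF family and Toll-like receptors reach NF-kB. The module was described here by 10 genes, Traf1, Traf2, Traf3, Traf5, Birc2, Birc3, Xiap, Map3k14, Tank and Tifa. They were picked by name, with earlier results of these data known, and matched to the deposited count table by Ensembl identifier. All 10 were found among its 55335 rows. The table came from bone marrow-derived macrophages (BMDMs), which are macrophages grown from mouse marrow in medium conditioned by L929 cells. The cells came from C57BL/6 mice, per the study's methods young adult males. The library names call them WT (wild type), with no transgene or deletion named in the labels. They received either PBS, the control, or lipopolysaccharide (LPS), a component of Gram-negative bacteria, for 1 h. Total RNA was sequenced in 3 libraries per treatment, with replicates numbered 1 to 3 in each.

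TRAF proteins are trimeric adaptors that bind the cytoplasmic tails of receptors and carry signals onward. TRAF2, TRAF3 and TRAF5 hold a RING domain, which TRAF1 lacks, and TRAF1 joins TRAF2 in mixed complexes. The cIAPs, encoded by Birc2 (cIAP1) and Birc3 (cIAP2), are ubiquitin ligases that are recruited by TRAF2. In resting cells, TRAF3, TRAF2 and the cIAPs together mark NIK, encoded by Map3k14, for degradation. When a receptor such as CD40 removes TRAF3, NIK accumulates and starts the non-canonical NF-kB pathway, in which p100 (Nfkb2) is cut to p52 and pairs with RelB. XIAP blocks caspases directly, TANK holds TRAFs together with the kinases TBK1 and IKKε, and TIFA links the kinase ALPK1 to TRAF6 and TRAF2. This control of NIK acts on protein, and the data here are RNA levels.

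Libraries held between 37787611 and 41516330 counts, and members had between 343 and 17852 counts in any library, well above a floor of 3 counts. Values below are CPM, counts relative to the size of the library after correction by edgeR's TMM factors, unless another scale is named. These factors were close to 1.15 in the PBS libraries and lay between 0.864 and 0.872 in the LPS libraries. Without them, that is by library size alone, the middle of all log2 fold changes shifted from -0.013 to -0.42, and small differences depend on this choice. All 8 macrophage markers examined were tested, and their summed level was between 29946 and 31229 CPM in PBS and between 35886 and 36245 CPM in LPS libraries. Of these, Cd14, the LPS co-receptor, rose from a mean of 398 to 3623 CPM, which is more than the means of the other 7 together moved. Adgre1, Csf1r, Itgam, Cd68 and Lyz2 had log2 fold changes between 0.058 and 0.35, Mertk one of -0.042 and Fcgr1 one of -0.48 (adjusted p = 2.62e-10). Among markers of other cells, the neutrophil list summed to between 44.0 and 47.0 CPM in PBS and between 57.7 and 61.9 CPM in LPS libraries. Of its 8 genes, Ly6g was at or under 3 counts in each library and the other 7 were tested. Higher with LPS were Ngp, S100a8, S100a9 and Ltf (log2 fold changes 0.61, 0.40, 0.37 and 0.24, adjusted p at most 0.0385). Camp, Mpo and Elane did not pass the adjusted p. All 4 dendritic cell markers rose, from a summed 3.15 to 4.01 CPM to 9.62 to 10.6 CPM, beside 10.5% of all tested genes. Among them, Xcr1 had only 1 or 2 counts and Zbtb46 18 or 19 counts in the PBS libraries. The lists for T, B, NK, mast, stromal and endothelial cells summed to at most 45.7 CPM in any library, with 2 rises among their 27 genes (Pdgfrb and Cdh5). By adjusted p alone, the mast cell and basophil genes Cpa3, Mcpt8 and Prss34 were higher too (log2 fold changes 0.90, 0.97 and 0.43). So were the B cell gene Ms4a1 (0.74) and the endothelial gene Kdr (0.24), and none was lower. The largest of these adjusted p was 0.0380, for Ms4a1. The mast cell gene Mcpt4 was at 0 in all 6 libraries. The part of these cells in the results below was not tested. In bulk RNA, fewer cells of a type and less RNA per cell cannot be told apart. The 5 genes used to check the treatment, Tnf, Il1b, Cxcl2, Il6 and Ptgs2, all rose.

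Sequences upstream of some members are shown first. The NF-kB and AP-1 factors are classical mediators of LPS responses, and their part in the changes of the members was not tested. RefSeq promoter windows on GRCm38.p6, from 250 bases before to 50 bases after each annotated start, were found for all 10 genes, 17 windows in all. Each was searched on both strands for the NF-kB consensus motif, an AP-1 motif (TGANTCA) and a cyclic AMP response element (TGACGTCA). The NF-kB consensus occurred in 4 of the 10 genes, against 9.55% of all 27025 genes with a window, although Tank has 4 windows and Xiap 3. In Traf3 it lay directly before the start, its first base 10 bases upstream. In Tank, matches at 2 positions covered all 4 windows. In Tifa and Xiap it began 34 and 23 bases after a start. The AP-1 motif was present in 1 member, Tank, against 8.97% of all genes, and the response element in 1 member, Birc2, against 2.03%. No window of Traf1 or Birc3, the members that rose most, held any of the 3 motifs in these letters, and the 80 bases upstream of their GENCODE starts are printed in lower case throughout. Capitals mark the matched motif in the other stretches, all read 5′ to 3′ on the strand of the gene. A match is a description of the letters only.
Traf3, NF-kB consensus, plus strand, chr12:111166340-111166369: cgcgcgcccaggcggcccgcGGGGATTTCC
Tank, NF-kB consensus on the opposite strand, so that the capitals are its reverse complement, printed on the plus strand, chr2:61578527-61578556: aagtcaggggatttctcagtGGAAGTCCCC
Tank, NF-kB consensus, plus strand, chr2:61593005-61593054: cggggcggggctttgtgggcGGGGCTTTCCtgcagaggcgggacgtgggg
Birc2, cyclic AMP response element, minus strand, chr9:7837065-7837112: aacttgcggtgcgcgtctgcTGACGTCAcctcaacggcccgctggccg
Traf1, minus strand, chr2:34961773-34961852: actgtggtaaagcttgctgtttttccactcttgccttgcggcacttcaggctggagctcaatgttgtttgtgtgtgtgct
Birc3, minus strand, chr9:7873187-7873266: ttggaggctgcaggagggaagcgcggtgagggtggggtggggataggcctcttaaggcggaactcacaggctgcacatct

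To learn how this module responds within 1 h, LPS was compared with PBS by edgeR's quasi-likelihood test over 15687 genes with Benjamini-Hochberg adjustment. A gene is said to have risen or fallen where the adjusted p was under 0.05 and the log2 fold change was beyond 1 in size, the thresholds that the study used. Of the 10 members, 6 rose (Traf1, Birc3, Tank, Birc2, Map3k14 and Traf3) and none fell. Among all tested genes, 10.5% rose and 10.4% fell by the same rule, 20.9% in all. The median log2 fold change of the members was 1.14, beside -0.013 for all tested genes. The members were chosen with earlier results of these data known, so such contrasts are descriptions and not a test of the module. By adjusted p alone, 9 members were higher with LPS, against 32.9% of all tested genes (67.7% passed in either direction), and Traf5 did not pass. In each of the 10 members the libraries of the groups did not overlap, which was also true of 70.5% of all tested genes. The labels call the replicate numbers batches and do not say whether they were separate animals, so p-values measure the spread between these samples, which may be technical.

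**Figure D1:**
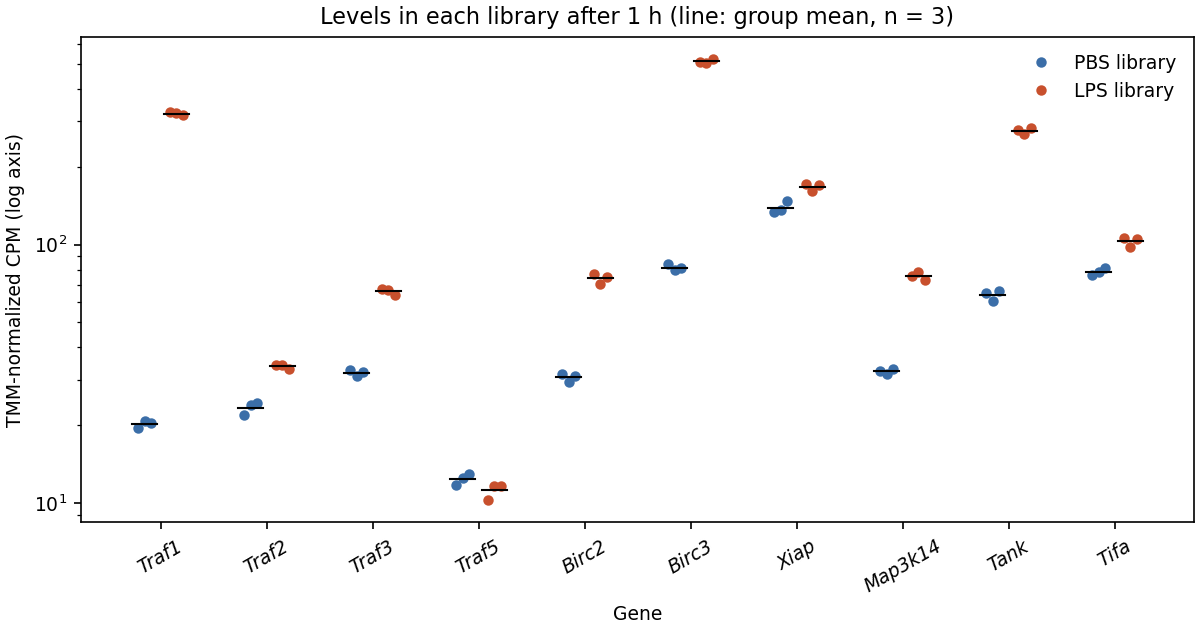
TMM-normalized CPM of the 10 genes on a log axis in each PBS library (blue) and LPS library (red) after 1 h, with a line at each group mean (n = 3). Traf1 lies between 19.4 and 20.7 CPM with PBS and between 317 and 325 CPM with LPS, whereas Traf5 stays between 10.2 and 12.9 CPM in all 6 libraries.

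Among the TRAF adaptors, the gene that rose was above all Traf1, an NF-kB target that encodes the member without a RING domain. Traf1 (ENSMUSG00000026875.14, chr2:34941750-34961772, minus strand) had 19.4, 20.7 and 20.3 CPM in PBS libraries 1, 2 and 3 and 325, 323 and 317 CPM in LPS libraries. Each LPS library was thus more than an order of magnitude above each PBS library, with replicates that lay close together. Traf1 rose by a log2 fold change of 3.997 (SE 0.04, adjusted p = 1.2e-22), 15.97-fold on the linear scale. Only 1.86% of the tested genes had a higher log2 fold change. Leaving out each library in turn kept it between 3.97 and 4.02.

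Traf3, whose protein restrains NIK and is also needed for interferon induction below Toll-like receptors, rose by far less. It had 32.6, 31.1 and 32.0 CPM in PBS and 67.6, 67.0 and 63.8 CPM in LPS libraries (ENSMUSG00000021277.16, chr12:111166370-111267153, plus strand). The groups were well apart, and the log2 fold change was 1.05 (SE 0.04, adjusted p = 1.23e-13). This value lies just past the threshold of 1, and it was 0.91 with upper quartile scaling and 0.65 with scaling by library size alone, where Traf3 no longer counted as risen.

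Traf2, the adaptor that brings the cIAPs to receptors, was higher with LPS without passing the threshold on size. Its level was 21.8, 23.9 and 24.3 CPM in PBS and 34.1, 34.2 and 33.0 CPM in LPS libraries (ENSMUSG00000026942.13, chr2:25517982-25546940, minus strand), a log2 fold change of 0.53 (SE 0.05, adjusted p = 4.32e-08). Traf5, a close relative of Traf2 and Traf3, was the lowest of the 10 by CPM in both PBS and LPS libraries. It had 11.7, 12.5 and 12.9 CPM in PBS and 10.2, 11.6 and 11.6 CPM in LPS libraries (ENSMUSG00000026637.13, chr1:191997205-192092559, minus strand). PBS replicate 1 lay close to the LPS libraries, and the log2 fold change of -0.15 (SE 0.07, adjusted p = 0.0904) did not pass the test. With upper quartile scaling it was -0.29 (adjusted p = 0.00212) and with library size alone -0.55 (adjusted p = 2.59e-06), so whether Traf5 was lower depends on the scaling. Of its 4566 exonic bases, 205 are shared with the antisense gene Gm26879, which had at most 2 counts in any library, and 65 with Mir3473c, which had at most 1.

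**Figure D2:**
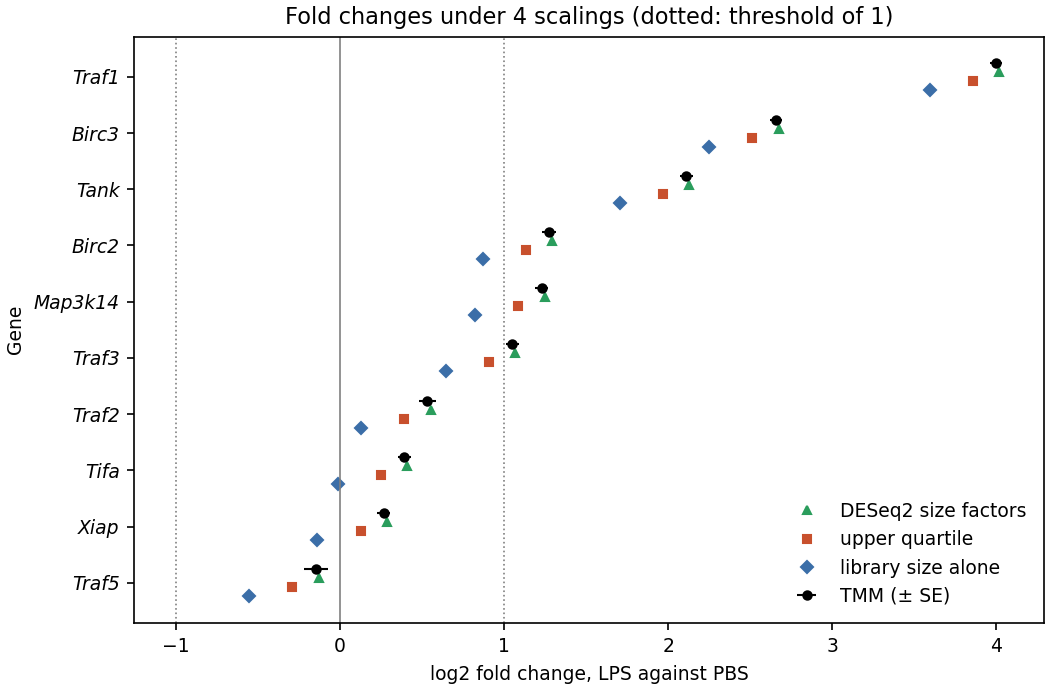
Log2 fold changes of the 10 genes, LPS against PBS, with TMM scaling (black, ± SE) and with 3 other scalings, and dotted lines at the threshold of 1 in either direction. Traf1, Birc3 and Tank stay above 1 with each scaling, whereas Traf3 moves from 1.05 to 0.65 and Xiap and Tifa cross 0 with library size alone.

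These unequal changes altered the make-up of the family. Within each library, the counts per kilobase of annotated exon of the 7 TRAF genes were summed and each gene was given as a share, a measure that no scaling between libraries affects. Traf1 made up 7.86%, 8.24% and 8.12% of this sum in PBS libraries and 52.1%, 51.5% and 51.1% in LPS libraries. It moved from the second lowest share of the 7 to the highest, or from the third lowest with the longest coding transcript as the length. Traf7, the largest with PBS, went from 33.5% ± 0.963 to 12.2% ± 0.293 (SD, n = 3 each), and Traf5 from 9.56% ± 0.389 to 3.46% ± 0.255. Shares sum to 100%, so a lower share is not by itself a lower level. The summed level of the family was 28.3 ± 0.270 RPKM (TMM-scaled CPM per kilobase of exon) in PBS and 70.7 ± 0.460 RPKM in LPS libraries (SD, n = 3 each).

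The ratio of Traf1 to Traf2, whose proteins bind each other, was 0.515, 0.501 and 0.484 per kilobase in PBS libraries and 5.51, 5.47 and 5.56 in LPS libraries. Traf1 RNA was thus below Traf2 RNA in each PBS library and above it in each LPS library. The log2 ratio differed by 3.46 between the groups, with a two-sided exact permutation p of 0.1, the smallest that 3 libraries against 3 allow.

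**Figure D3:**
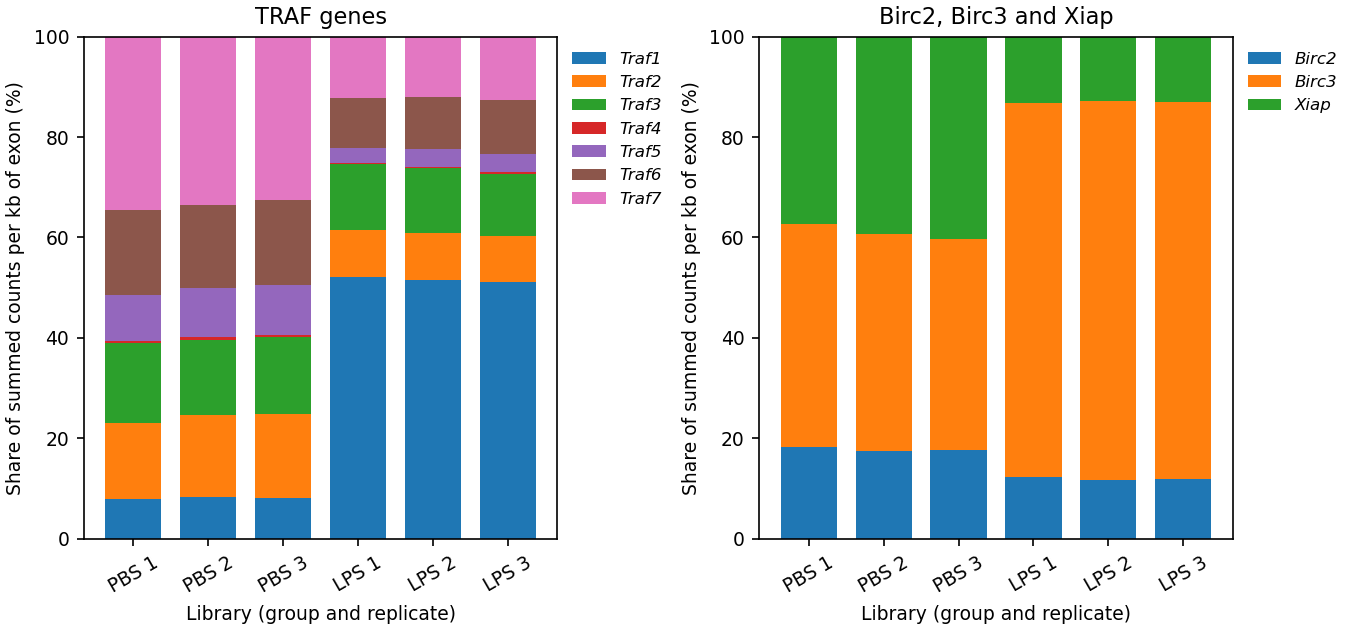
Share of the summed counts per kilobase of exon held by each of the 7 TRAF genes (left) and by Birc2, Birc3 and Xiap (right) in each of the 6 libraries. Traf1 takes between 51.1% and 52.1% and Birc3 between 74.5% and 75.7% of their sums in LPS libraries.

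Both cIAP genes rose, Birc3 more than Birc2. Birc3 (ENSMUSG00000032000.17, chr9:7848699-7873186, minus strand) had 84.0, 79.5 and 80.9 CPM in PBS and 510, 505 and 525 CPM in LPS libraries, the highest level of any member after LPS. Its log2 fold change was 2.66 (SE 0.04, adjusted p = 8.66e-21), 6.30-fold on the linear scale. Birc2, its neighbour on the same strand 11634 bp away (ENSMUSG00000057367.12, chr9:7818227-7837064), had 31.4, 29.4 and 31.0 CPM in PBS and 76.7, 70.6 and 74.95 CPM in LPS libraries. The groups were apart for both genes, and Birc2 rose by a log2 fold change of 1.28 (SE 0.04, adjusted p = 1.65e-14). With scaling by library size alone this was 0.87, below the threshold.

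The genes for cIAP2 and cIAP1 were compared as a ratio within each library. Per kilobase of exon, Birc3 stood at 2.45, 2.47 and 2.38 times Birc2 in PBS libraries and at 6.08, 6.54 and 6.40 times in LPS libraries. Birc3 RNA was therefore the more abundant of the pair in both conditions, and its excess widened with LPS in each same-numbered pair of libraries. The log2 ratio differed by 1.38, between 1.31 and 1.42 in the same-numbered pairs (two-sided exact permutation p = 0.1, the smallest possible here).

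Xiap, the caspase inhibitor of the group, differed little. It had 133, 136 and 147 CPM in PBS and 171, 161 and 171 CPM in LPS libraries (ENSMUSG00000025860.15, chrX:42059679-42109656, plus strand). The log2 fold change was 0.27 (SE 0.04, adjusted p = 1.08e-05), but -0.14 (adjusted p = 0.00606) with scaling by library size alone, so its direction rests on the scaling. As a share of the summed counts per kilobase of Birc2, Birc3 and Xiap, which does not rest on it, Xiap went from 39.0% ± 1.53 in PBS to 13.0% ± 0.248 in LPS libraries (SD, n = 3 each). Birc3 went from 43.2% ± 1.23 to 75.2% ± 0.597 and Birc2 from 17.8% ± 0.370 to 11.9% ± 0.352, although Birc2 itself rose. A share falls where another gene of the sum rises, so the lower share of Xiap does not give the direction of its level.

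Map3k14, which encodes NIK, the kinase on which the TRAF3 and cIAP complex acts, rose. Among the genes for restraints of NIK, Traf3, Birc2 and Birc3 rose too, of which only Birc3 did so with each scaling, and Traf2 did not rise. Map3k14 had 32.3, 31.5 and 33.0 CPM in PBS and 75.9, 78.4 and 73.0 CPM in LPS libraries (ENSMUSG00000020941.7, chr11:103219762-103267472, minus strand). The log2 fold change was 1.23 (SE 0.04, adjusted p = 1.05e-14), or 0.83 with scaling by library size alone, below the threshold. Of its 6550 exonic bases, 135 lie within the same-strand gene 1700028N14Rik, which had between 35 and 111 counts per library. The ratio of Map3k14 to Traf3 per kilobase was 1.11, 1.14 and 1.16 in PBS and 1.26, 1.31 and 1.29 in LPS libraries. Each LPS library was above each PBS library by a small margin, with a log2 ratio that differed by 0.18 and was higher in 3 of 3 same-numbered pairs (two-sided exact permutation p = 0.1, the smallest possible here).

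Of the TRAF-binding proteins, Tank rose and Tifa differed little. Tank, whose protein is known as a brake on Toll-like receptor signalling, had 65.1, 60.7 and 65.9 CPM in PBS and 279, 268 and 282 CPM in LPS libraries (ENSMUSG00000064289.15, chr2:61578585-61654171, plus strand). All LPS libraries were far above the PBS libraries, and the log2 fold change was 2.11 (SE 0.04, adjusted p = 1.09e-18). Tifa had 76.1, 78.4 and 80.9 CPM in PBS and 106, 97.9 and 105 CPM in LPS libraries (ENSMUSG00000046688.14, chr3:127789805-127832164, plus strand). Its log2 fold change was 0.39 (SE 0.04, adjusted p = 7.82e-08), and -0.012 (adjusted p = 0.787) with scaling by library size alone. Of its 3199 exonic bases, 105 overlap the opposite-strand transcript Gm43654, with between 19 and 56 counts per library.

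Ordered by level per kilobase, the members changed places. In PBS libraries Tifa was highest at 24.5 ± 0.760 RPKM, followed by Birc3 at 16.3 ± 0.456, Xiap at 14.7 ± 0.765, Tank at 10.5 ± 0.461 and Birc2 at 6.68 ± 0.236 RPKM (SD, n = 3). Map3k14 (4.93), Traf2 (4.57), Traf3 (4.34), Traf5 (2.71) and Traf1 (2.28 RPKM) followed, and the libraries overlapped for Traf2 and Traf3 only among these neighbours in the order. In LPS libraries Birc3 led at 102 ± 1.98 RPKM, ahead of Tank at 45.3 ± 1.27, Traf1 at 36.5 ± 0.507 and Tifa at 32.2 ± 1.40 RPKM (SD, n = 3). Traf1 had thus moved from the last place to the third, while Traf5 at 2.45 ± 0.179 RPKM took the last. Xiap, Birc2, Map3k14, Traf3 and Traf2 lay between 17.7 and 6.62 RPKM, with no overlap between neighbours. These levels use the union of all annotated exons as the length, and part of the order depends on that. With the longest coding transcript, Tank stood above Xiap and Traf2 above Map3k14 with PBS, where Traf3 was last and Traf1 next to last, and Traf2 stood above Traf3 with LPS.

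The other genes of the pathway were taken from lists written by name, of which 53 of 55 genes were tested. Of these, 8 rose and 6 fell, 15.1% and 11.3%, shares near the background of 10.5% and 10.4%, and their median log2 fold change was -0.0041. Both genes listed as factors of the non-canonical branch rose. Nfkb2, the p100 precursor, went from 58.0 ± 1.31 to 327 ± 12.2 CPM (log2 fold change 2.50, SE 0.04, adjusted p = 5.42e-20), and Relb from 30.2 ± 1.94 to 159 ± 5.29 CPM (log2 fold change 2.40, SE 0.05, adjusted p = 1.62e-18; SD, n = 3 each). Their fold changes lie between those of Tank and Birc3.

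Of the 11 receptors and adaptors that recruit TRAFs, 4 rose and none fell, beside 10.5% and 10.4% of all tested genes. Cd40, the receptor that engages TRAF1, TRAF2 and TRAF3, went from 11.5 ± 0.305 to 389 ± 9.40 CPM (log2 fold change 5.08, SE 0.04), above any member. Tnfrsf9 (4-1BB), another receptor that binds TRAF1 and TRAF2, had a log2 fold change of 3.21 (SE 0.34) at a low level, 2 to 9 counts in PBS and 35 to 47 counts in LPS libraries. The adaptor kinase Irak2 had a log2 fold change of 2.00 (SE 0.03). The remaining rise was Tnfrsf1b (TNFR2), which signals through TRAF2 and the cIAPs, with 1.56 (SE 0.03). In contrast, Ripk1 and Tradd, which join TRAF2 at TNFR1, were lower with log2 fold changes of -0.62 (adjusted p = 1.21e-11) and -0.43 (adjusted p = 7.67e-06), short of the threshold on size.

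None of the 3 other TRAF genes rose or fell, beside 20.9% of all tested genes that did either. Traf6, the TRAF that serves Toll-like receptors, had a log2 fold change of 0.61 (SE 0.04), Traf7 one of -0.13 (SE 0.04) and Traf4, at under 1 CPM in each library and with overlapping groups, one of 0.79 (SE 0.34). Traf4 passed both thresholds without LPS replicate 1 (1.02, adjusted p = 0.0199) or without PBS replicate 2 (1.22, adjusted p = 0.00583). Nor did any of the 6 tested BIR-domain genes outside the members, where the giant ubiquitin ligase Birc6 stood at 0.57 (SE 0.04) and the bacterial sensor Naip2 at -0.078 (SE 0.04). Naip1 had the highest value of these, 0.74 (SE 0.24), but at about 1 CPM and with libraries that overlapped between the groups. The 3 tested antagonists of IAPs, Diablo (-0.60), Xaf1 (-0.44) and Htra2 (-0.28), had negative log2 fold changes, none past the threshold on size. Each had an adjusted p of at most 3.68e-05, and 34.9% of all tested genes were lower by adjusted p. All 3 antagonists kept a negative sign under each of the 4 scalings, and Diablo passed the threshold with library size alone, as did Ripk1 and Rnf31.

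Of all tested genes, 10.4% fell and 10.5% rose. In the kinase complexes next to the module, 2 of 11 tested genes fell and none rose. These were Tab1, a subunit of the TAK1 complex, from 30.1 ± 2.31 to 11.3 ± 1.08 CPM (log2 fold change -1.41, SE 0.07), and Tbkbp1, an adaptor of TBK1, from 23.4 ± 1.73 to 11.0 ± 0.597 CPM (log2 fold change -1.09, SE 0.07; SD, n = 3 each). Tbk1 and Ikbke, the kinases that TANK binds, had log2 fold changes of 0.50 and 0.64 (SE 0.03 each), smaller than that of Tank. Among ubiquitin editors, Tnfaip3 (A20) rose with a log2 fold change of 6.70 (SE 0.04), and the other 9 neither rose nor fell, with Rnf31, the catalytic subunit of the linear ubiquitin ligase, at -0.73 (SE 0.04).

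Of the 7 TRAF-interacting genes, 1 rose and 4 fell, beside 10.5% and 10.4% of all tested genes. Sqstm1, the p62 scaffold that binds TRAF6, had a log2 fold change of 1.87 (SE 0.03). Tifab, which is related to Tifa and inhibits it, fell from 66.2 ± 1.66 to 30.3 ± 0.255 CPM (log2 fold change -1.13, SE 0.04), while Alpk1, the kinase upstream of TIFA, was higher with 0.71 (SE 0.04; SD, n = 3 each). Tifa itself thus lay between its partner and its inhibitor. Traf3ip3 and Traip fell, each with a log2 fold change of -1.07 (SE 0.05 and 0.17), and Traf3ip1 with -1.02 (SE 0.12). The calls of Traip and Traf3ip1 are close to the threshold, and each was lost without LPS replicate 3, while Traip was also lost without PBS replicate 1 and Traf3ip1 without PBS replicate 3.

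**Figure D4:**
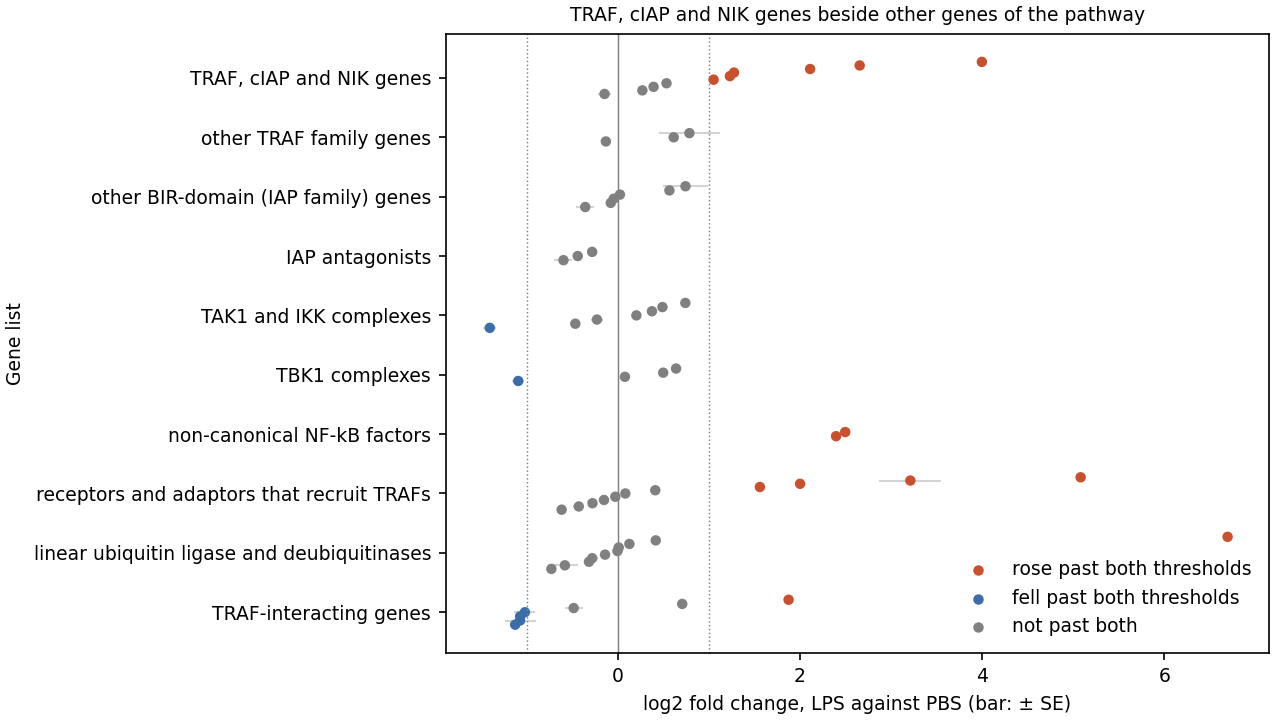
Log2 fold changes (± SE) of the 10 TRAF, cIAP and NIK genes and of 53 tested genes in 9 pathway lists. Colours mark genes that rose (red), fell (blue) or did not pass both thresholds (grey). Tnfaip3 (6.70), Cd40 (5.08) and Traf1 (3.997) are farthest to the right, and Tab1 (-1.41) is farthest to the left.

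Genes with a pattern most like that of the extreme members were sought among 12136 others with a mean of at least 50 counts, by the Euclidean distance of centred log2 CPM over the 6 libraries. For Traf1 they were Prdm1 (log2 fold change 4.01), Junb (3.996) and Rasgef1b (4.06), at distances between 0.0621 and 0.0946. Prdm1 and Junb encode transcription factors. With 2 conditions, this likeness describes little more than an equal fold change. For Traf5 they were Gm47483, Oaz2 and Frg1, at distances between 0.0382 and 0.0836.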

How the data were processed

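The authors aligned paired-end reads from a stranded total RNA kit to GRCm38 with HISAT2 2.1.0, and the deposited values are raw read counts per gene from featureCounts 2.0.0 (versions per the labels). The annotation release, the strand setting and the handling of multi-mapped reads are not given in the sources used here. Identifiers were matched to GENCODE M21 without their version, 55154 of 55335 with a symbol. Counts were tested in R 4.3.3 with edgeR 4.0.16 (filterByExpr, TMM, quasi-likelihood test, Benjamini-Hochberg adjustment over 15687 genes), and the functions were first tested on simulated data. Standard errors were derived from the F statistic. DESeq2 1.42.0, the tool of the paper, and limma 3.58.1 (voom) were alternatives, beside other scalings, other filters, each library left out and the replicate number as a block. The labels call the replicate number a batch, which is the source of the pairing. Deviations of same-numbered libraries correlated between -0.0139 and 0.0822. The members and lists were chosen with earlier results of these data known. Named by rule were all members, up to 3 called genes of each list with the largest change, neighbouring genes that were called or overlap a member exon, and the 3 genes most like each extreme member. All other list genes and neighbours named, and the sequences printed, were chosen after their values were seen. Floors cover counting error only. With 3 libraries per group, exact permutation tests (scipy 1.17.1) cannot give a p under 0.1. Sequences are from RefSeq, GRCm38.p6.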

Additional observations from a re-analysis of the deposited data

How the results depend on the processing

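Of the results, the number of members called depended most on the scaling. With scaling by library size alone, 3 members rose in place of 6, with Traf3, Birc2 and Map3k14 below the threshold, and 2964 of all genes fell in place of 1624. The log2 fold change was then -0.14 for Xiap and -0.012 for Tifa, the only members whose direction turned under any alternative run. Upper quartile scaling left 5 members. Traf5 passed the adjusted p with upper quartile scaling (-0.29) and with library size alone (-0.55), and not under the other 12 alternatives. Of the 53 tested pathway genes, 7 had the opposite sign with library size alone, and upper quartile scaling turned 5. Those among them with an adjusted p under 0.05 with TMM scaling were Chuk, Map3k7, Irak1 and Otud5, the last 2 under both scalings. A filter of 10 counts in every library tests fewer genes and left 2168 called, 1027 of them lower. With the replicate number as a block, 6 members and 3276 genes were called, and no call on a member or pathway gene changed. Leaving out each library in turn kept 6 members called in each case, and between 12 and 15 pathway genes in place of 14. The paired differences of the 3 ratios had the same means, and a paired exact test cannot give a p under 0.25. With the longest coding transcript as the length, an alternative chosen after seeing the data, Traf1 held 11.9% and 64.0% of the TRAF sum in PBS and LPS libraries, and Birc3 48.7% and 79.1% of its sum.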

Other observations

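The genes next to the members in GENCODE M21 were examined as values. Birc2 lies between Birc3 and Tmem123, which encodes a transmembrane protein, and Tmem123 also rose, from a mean of 95.1 ± 2.54 CPM with PBS to 215 ± 11.1 CPM with LPS (SD, n = 3). Its log2 fold change was 1.18 (SE 0.04, adjusted p = 1.04e-14). The next gene beyond Birc3, Yap1, had between 5 and 13 counts per library and was not tested. Among the other tested genes next to or overlapping a member, other than the members themselves, none passed both thresholds. The closest to doing so was Rcor3, beside Traf5, with a log2 fold change of -0.996 (adjusted p = 1.39e-10). These calls on neighbours are given with TMM scaling only, and small margins past or short of the threshold depend on it. With library size alone Birc2 itself was below the threshold, at 0.87. Alpk1, the kinase gene upstream of TIFA in its pathway, is also the annotated gene next to Tifa on its lower side, 9277 bp away on the opposite strand.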
